A study of Homo sapiens with 16 samples.

Results

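Peaks of accessible chromatin were examined in 4 windows beside or within the centromeres of chromosomes 6, 9, 11 and 18, in MDA-MB-231 cells labelled selected on soft or selected on stiff and in their ancestral population. A peak belonged to a window when its summit lay on GRCh38 at 58 to 60 Mb of chromosome 6, 44 to 46 Mb of chromosome 9, 52 to 54 Mb of chromosome 11 or 16 to 20 Mb of chromosome 18. The windows span 10 Mb and hold 5555 of the 477967 peaks in the 4 deposited lists. There were 1247 window peaks in the list of selected cells on soft gel, 980 in that of selected cells on stiff gel, 1923 in that of ancestral cells on soft gel and 1405 in that of ancestral cells on stiff gel. The windows were picked with the peak positions and counts of these same lists known. Number, spacing, length and pileup of their peaks are therefore given as a description, with no test.

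MDA-MB-231 is an established, mesenchymal-like line from a human breast adenocarcinoma, labelled wild type in every group. The 16 samples form 4 groups of 4: selected on soft, selected on stiff, ancestral on soft and ancestral on stiff, where soft is a collagen-coated polyacrylamide gel of 1 kPa and stiff one of 308 kPa. Selection lasted 75 days, with 20000 cells carried at each passage to a fresh gel of matching stiffness. The labels do not say outright whether the group selected on stiff was selected on stiff gel or was selected on soft gel and then grown on stiff gel, nor whether the 4 samples of a group were separate cultures. The stated question of the study was whether chromatin differs between selected and ancestral cells on soft gel.

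ATAC-seq uses a transposase that cuts accessible DNA and leaves sequencing adapters there, so that read pile-ups mark open chromatin. The authors deposited 1 peak list per group, so there is no spread between replicates behind any value here. Intervals printed below are 95% intervals for counting error alone. The lists held 129755, 122591, 109578 and 116043 peaks for selected on soft, selected on stiff, ancestral on soft and ancestral on stiff. No column gives the reads of a sample. The caller's genome-wide background, the pileup against which enrichment was computed, was 13.5, 12.6, 16.3 and 20.2 in the same order and is the only measure of depth. The lowest pileup of any listed peak followed it, at 27, 26, 31 and 37. As a check of the cell line, peaks reaching within 1 kb of either end of the gene were found at 4 of 6 mesenchymal marker genes, VIM, AXL and S100A4 among them, and at 5 of 6 luminal genes in each list. ESR1, which encodes the oestrogen receptor, had none. Between 72.5% and 75.8% of all protein-coding genes had such a peak, so these counts do not separate the types. A numbered peak is skipped at 1.00% of the numbers in each list, in stretches longer than the longest listed peak of that list (8443, 7950, 5650 and 5946 bp in the order above). Where a skipped number lies at a region, its presence in that list is undetermined. Among the mesenchymal genes this holds for FOSL1 in every list and for CD44 in the ancestral lists, both counted above as without a peak. CD44 had a peak in the selected lists only, and MSN in the ancestral lists only.

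Human centromeres are built on long tandem arrays of alpha satellite, short repeat units copied head to tail, on which nucleosomes with the histone variant CENP-A form the base of the kinetochore. The flanking pericentromeric DNA is repeat-rich, poor in genes and mostly packed as heterochromatin marked by H3K9 methylation and HP1 proteins. In GRCh38 the arrays are represented by modelled sequence, and a short read from a repeat can match many copies almost equally well. How reads with several possible placements were treated is not given in the sources used here, and which window peaks lie on satellite DNA was not examined.

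No protein-coding gene of the RefSeq GRCh38.p14 table lies in any of the 4 windows. The chromosome 6 window holds the lncRNA LOC124901336 at chr6:58033582-58038293 and the pseudogenes LOC100288628 at chr6:58071691-58072722 and RBBP4P4 at chr6:58119544-58121085, and none of these had a peak within 1 kb in any list. The nearest protein-coding genes of that window were PRIM2, a subunit of DNA primase, 353.1 kb to its left, and KHDRBS2, an RNA-binding protein gene, 1543 kb to its right. To the left of the chromosome 18 window the nearest was ANKRD30B, at 1059 kb. The chromosome 11 window lies 2017 kb from OR4C12 and 603.1 kb from OR4C46, both olfactory receptor genes. On chromosome 9, LOC112268044 lies 1044 kb to the left and SPATA31A5 14910 kb to the right. Apart from the 3 loci on chromosome 6, the windows are intergenic in this annotation.

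Peaks crowded in the windows, and most of all in ancestral cells on soft gel. Windows held 124.7 peaks per Mb in selected cells on soft gel, 98.0 in selected cells on stiff gel, 192.3 in ancestral cells on soft gel and 140.5 in ancestral cells on stiff gel. The rest of the 4 chromosomes held 47.0, 44, 39.9 and 40.7 per Mb in that order. The windows therefore took 4.90% of the 4 chromosomes' peaks in selected cells on soft gel (interval 4.64 to 5.18%), 4.15% in selected cells on stiff gel (3.90 to 4.41%), 8.57% in ancestral cells on soft gel (8.21 to 8.94%) and 6.29% in ancestral cells on stiff gel (5.98 to 6.62%). None of these intervals overlap, but they cover counting error alone. The windows were picked with these counts known, so the intervals are no test of a difference. Peaks covered 12.9%, 8.70%, 24.3% and 14.6% of the windows in the same order of lists, against 5.67%, 5.08%, 4.34% and 4.60% of the rest.

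The windows differ in how their peaks are placed. On chromosome 6 the first 0.6 Mb held 22 peaks in selected on soft, 23 in selected on stiff, 26 in ancestral on soft and 16 in ancestral on stiff, or 36.7, 38.3, 43.3 and 26.7 per Mb, not far from the 48.3, 43.3, 41.4 and 40.1 per Mb in the rest of that chromosome. From 58.6 Mb onwards the counts were 365, 280, 501 and 472, so the crowding starts there, and the peaks ended with summits at 59826647 in selected on soft, 59816817 in selected on stiff, 59824522 in ancestral on soft and 59826663 in ancestral on stiff. The chromosome 9 peaks thinned along the window, with 197, 175, 275 and 234 in its first Mb against 42, 34, 91 and 44 in its second. Their last summits lay at 45500554 in selected on soft, 45500575 in selected on stiff, 45513815 in ancestral on soft and 45513241 in ancestral on stiff, and the next peak of any list had its summit at 60522092 or beyond. The chromosome 11 peaks were spread over the whole window, with 172, 161, 244 and 207 in the first Mb and 132, 98, 202 and 153 in the second. On chromosome 18 the first 2 Mb held 211, 152, 357 and 195 peaks and the second 2 Mb held 106, 57, 227 and 84. The far side of the chromosome 18 window is where the lists stood furthest apart.

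**Figure D1:**
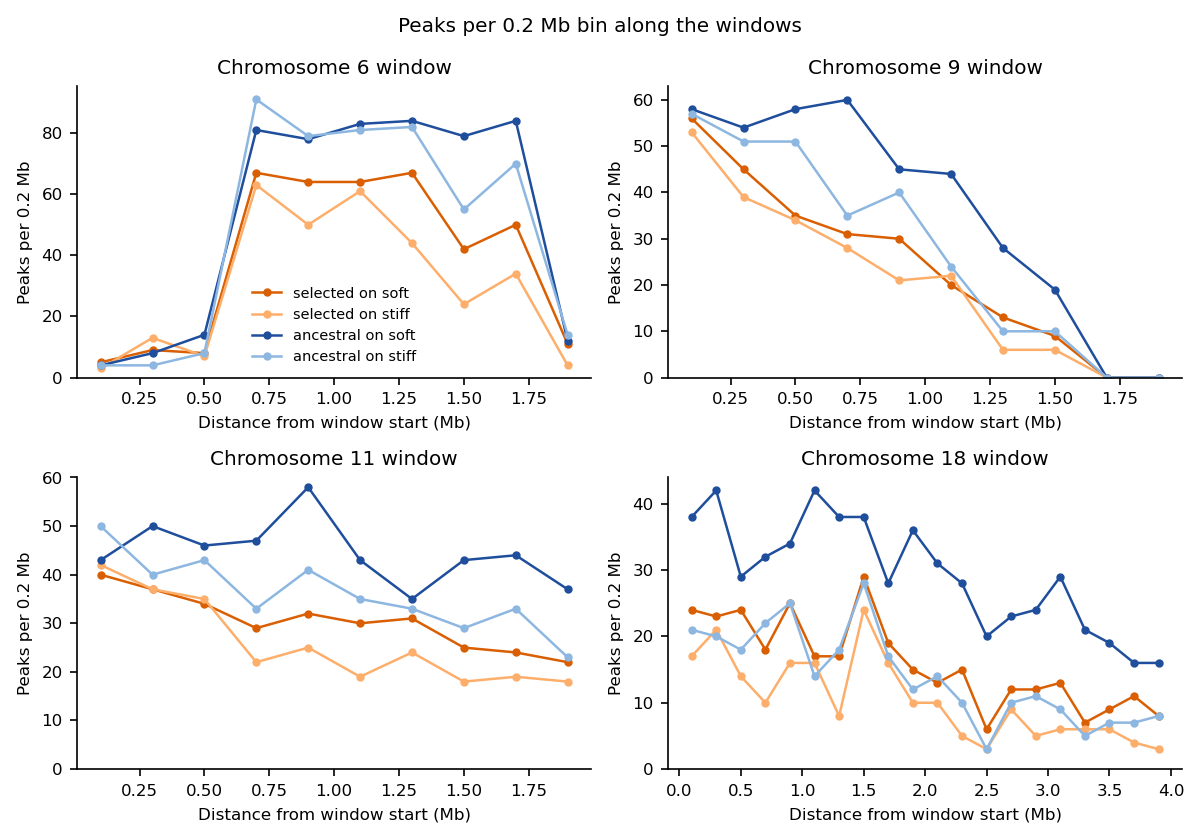
Number of peaks per 0.2 Mb (vertical axis) against distance from the window's start in Mb (horizontal axis) in the 4 windows, 1 line per list, with points at the middle of each 0.2 Mb bin. Ancestral cells on soft gel have the most peaks along the whole chromosome 18 window, the chromosome 6 counts step up 0.6 Mb into the window, and the last bins on chromosome 9 hold 0 peaks.

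The window edges are round positions. On chromosome 6 the last peak before the window had a pileup of 429 in selected cells on soft gel, 956 in ancestral cells on soft gel and 1187 in ancestral cells on stiff gel, all with a summit at 57961450, and of 52 in selected cells on stiff gel at 57989757. The first peak inside had pileups of 30, 55, 124 and 107 in selected on soft, selected on stiff, ancestral on soft and ancestral on stiff. On chromosome 11 the last peak before the window had pileups of 41, 35, 62 and 69 in that order, and the first inside 45, 37, 55 and 55. On chromosome 18 the corresponding values were 34, 49, 42 and 45 before the window and 64, 51, 87 and 92 inside it. On chromosome 9 they were 57, 63, 129 and 101 before it and 67, 77, 71 and 110 inside. Peaks thus continue across the left edges on chromosomes 9, 11 and 18, at pileups of the same order. At the far edges the last peak inside and the first beyond had pileups of 29 and 137 in selected on soft, 36 and 126 in selected on stiff, 63 and 172 in ancestral on soft and 52 and 126 in ancestral on stiff on chromosome 6. The same pairs were 59 and 41, 38 and 31, 56 and 52, and 51 and 43 on chromosome 9, and 39 and 101, 42 and 84, 42 and 145, and 79 and 43 on chromosome 11. On chromosome 18 they were 37 and 37, 38 and 28, 43 and 44, and 47 and 61.

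Window peaks were weak in every list. Fold enrichment, the authors' ratio of pileup to background, had a median of 2.76 in selected cells on soft gel, 2.79 in selected cells on stiff gel, 2.89 in ancestral cells on soft gel and 2.69 in ancestral cells on stiff gel. Medians in the rest of the chromosomes were 3.38, 3.82, 5.66 and 5.75. A fold enrichment under 4 was found for 88.3%, 87.2%, 83.4% and 85.5% of window peaks, against 58.9%, 52.6%, 39.2% and 38.2% of the rest. Pileup within 1.5 times the lowest of the list was found for 53.6%, 59.7%, 41.5% and 47.8% of window peaks. Many window peaks thus lie close to the pileup at which a peak is listed at all.

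The median pileup of window peaks was 39 in selected on soft (quartiles 35 and 47), 37 in selected on stiff (33 and 45), 49 in ancestral on soft (42 and 61) and 56 in ancestral on stiff (48 and 70). In the rest of the chromosomes the medians were 48, 51, 97 and 121. Selected lists thus had the lower raw pileup in the windows, as elsewhere. Divided by the background of each list, the log2 ratio of the window medians of selected over ancestral cells was −0.054 on soft gel and 0.084 on stiff gel. In the rest it was −0.74 and −0.56. These medians are over different peaks in each list, many of them near the lowest listed pileup. At the 588 window regions with a peak in all 4 lists, the median ratio over background was −0.31 on soft and −0.088 on stiff gel. Window peaks were longest in ancestral cells on soft gel: median lengths were 751 bp (quartiles 461 and 1344) in selected on soft, 610 bp (400 and 1145) in selected on stiff, 904 bp (492 and 1720) in ancestral on soft and 728 bp (445 and 1369) in ancestral on stiff. In the rest of the chromosomes the 4 medians lay between 787 and 829 bp. The shortest listed peak measured 312, 276, 284 and 272 bp in the same order of lists, in the windows and in the rest alike. The part of this lower limit in the lengths was not tested. Peaks over 3 kb numbered 38, 22, 158 and 56 in the windows, which is 3.05%, 2.24%, 8.22% and 3.99% of window peaks, against 6.90%, 6.35%, 4.54% and 5.37% of the rest. The share of such long peaks lay above that of the rest in ancestral cells on soft gel and below it in the other 3 lists.

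**Figure D2:**
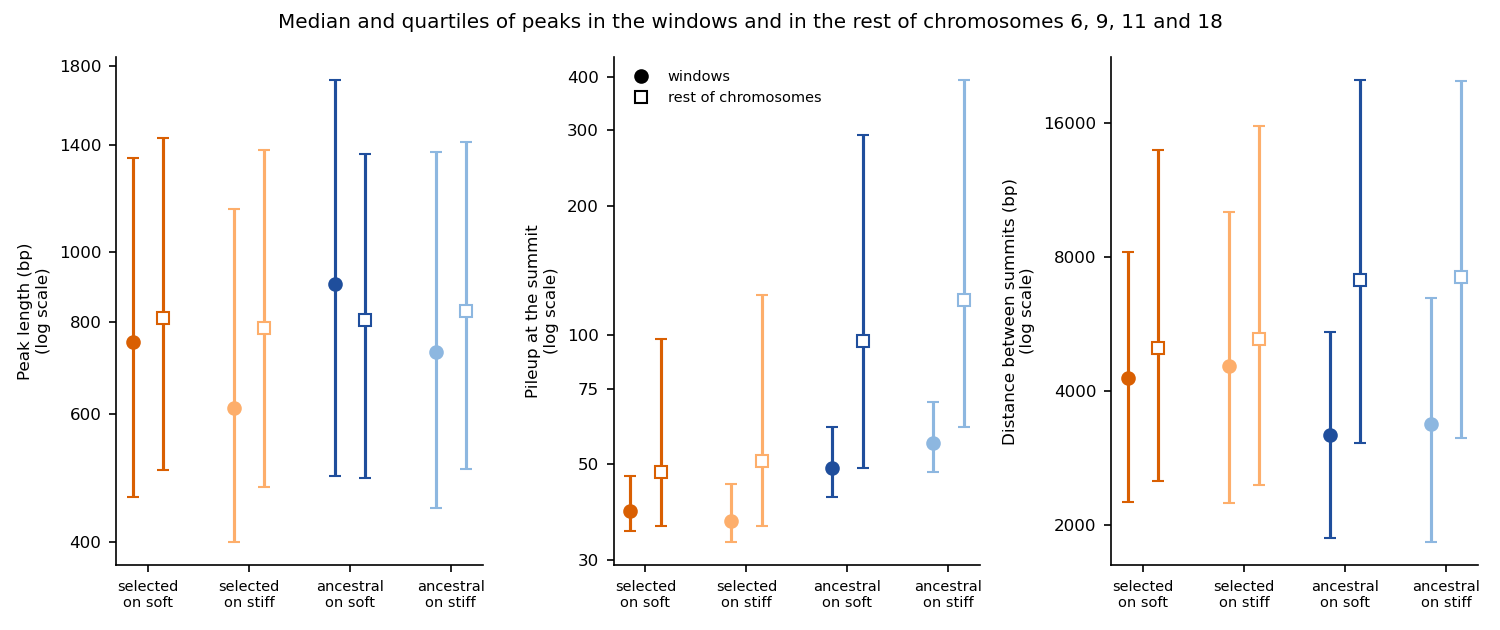
Median (points) and quartiles (bars) of peak length in bp, pileup at the summit and distance between neighbouring summits in bp, all on log scales, for peaks in the windows (filled circles) and in the rest of chromosomes 6, 9, 11 and 18 (open squares) of each list. The rest is alike in length in all 4 lists at 787 to 829 bp, whereas window peaks have medians from 610 to 904 bp.

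Selected cells on soft gel had fewer window peaks than ancestral cells on soft gel, although they had more peaks elsewhere. The windows held 1247 against 1923 peaks, a ratio of 0.648, while the rest of the 4 chromosomes held 24181 against 20516, a ratio of 1.18. The log2 odds ratio of lying in a window was −0.86 (interval −0.97 to −0.76). Each window had this direction, with log2 odds ratios of −0.67 on chromosome 6 (387 against 527 peaks), −0.88 on chromosome 9 (239 against 366), −0.86 on chromosome 11 (304 against 446) and −0.81 on chromosome 18 (317 against 584). The covered length of the windows was 1288 kb against 2434 kb, a ratio of 0.529, and in the rest the ratio was 1.31. Median spacing between neighbouring summits was 4.29 kb in selected and 3.19 kb in ancestral cells in the windows, whereas in the rest it was 5.00 and 7.11 kb.

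This direction turned under 1 of the settings tried. When the 54789 peaks of highest fold enrichment were taken from each list, windows held 109 peaks in selected cells on soft gel and 47 in ancestral cells on soft gel, and 60 in selected cells on stiff gel and 26 in ancestral cells on stiff gel. The log2 odds ratios then turned to 1.26 on soft gel and 1.24 on stiff gel. The lowest fold enrichment admitted differed, at 4.28 and 4.78 in the selected lists on soft and stiff gel and 6.47 and 6.93 in the ancestral lists. With the same numerical limit in every list the direction stayed. It was −1.04 and −0.92 for peaks with a −log10 q-value of at least 10, and −1.37 and −1.06 for a fold enrichment under 4. That q-value was reached by 30.2% of window peaks in selected and 47.0% in ancestral cells on soft gel. On stiff gel the shares were 28.7% and 46.8%. The lists differ in background, and neither limit evens this out, so these settings do not set the turned direction aside.

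On stiff gel the same direction was seen. Selected cells had 980 and ancestral cells 1405 window peaks, a ratio of 0.698, against 1.08 in the rest, and the log2 odds ratio was −0.63 (interval −0.76 to −0.51). By window it was −0.80 on chromosome 6 (303 against 488 peaks), −0.51 on chromosome 9 (209 against 278), −0.67 on chromosome 11 (259 against 360) and −0.31 on chromosome 18 (209 against 279). Covered length was 870.1 kb in selected and 1462 kb in ancestral cells, a ratio of 0.595 against 1.11 in the rest. Spacing was 4.54 kb in selected and 3.37 kb in ancestral cells, and 5.24 and 7.23 kb in the rest. On both gels, then, selected cells had sparser window peaks, and more peaks over the rest of the 4 chromosomes together. The rest of chromosome 18 was the exception to the second statement, with 1719 peaks in selected and 1806 in ancestral cells on soft gel, a ratio of 0.952, and 1807 and 1943 on stiff gel, a ratio of 0.93. The ancestral list also had the higher background on both gels, since selected cells had 13.5 against 16.3 in ancestral cells on soft gel and 12.6 against 20.2 on stiff gel, and the part of depth in the window counts was not tested.

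The median length of window peaks was shorter in selected than in ancestral cells, with log2 ratios of −0.27 on soft gel and −0.26 on stiff gel, against 0.01 and −0.08 in the rest. The windows did not share it alike. On chromosome 6 the medians were 609 bp in selected on soft, 511 bp in selected on stiff, 921 bp in ancestral on soft and 725.5 bp in ancestral on stiff. On chromosome 9 they were 888, 702, 1110 and 920 bp. Selected peaks were thus shorter in both windows, with log2 differences from the rest of the chromosome of −0.61 and −0.42 on chromosome 6 and −0.35 and −0.36 on chromosome 9, on soft and stiff gel. On chromosome 11 the differences were −0.10 and 0.05. On chromosome 18 selected cells had the longer median, at 781 bp against 682.5 bp on soft gel and 619 bp against 586 bp on stiff gel. Without chromosome 6, the pooled difference from the rest was −0.03 on soft gel and −0.01 on stiff gel, against −0.28 and −0.18 with it.

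Soft gel went with more window peaks than stiff gel in both populations. In ancestral cells the windows held 1923 peaks on soft and 1405 on stiff gel, a ratio of 1.37, against 0.981 in the rest, and the log2 odds ratio was 0.48 (interval 0.38 to 0.58). The size differed by window. It was 0.07 on chromosome 6 (527 against 488 peaks, interval −0.12 to 0.25), 0.34 on chromosome 11 (446 against 360), 0.48 on chromosome 9 (366 against 278) and 1.17 on chromosome 18 (584 against 279, interval 0.94 to 1.40). On chromosome 6 the interval thus held both signs, and without chromosome 18 the pooled value was 0.27. These intervals cover counting error alone in windows picked with the counts known, so they are no test. Peaks on soft gel were also longer, with medians of 904 and 728 bp in the windows against 806 and 829 bp in the rest, and covered 1.67 times as much of the windows against 0.945 times as much of the rest. The backgrounds of these 2 lists were 16.3 on soft and 20.2 on stiff gel, and the part of depth in these values was not tested.

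In selected cells the windows held 1247 peaks on soft and 980 on stiff gel, a ratio of 1.27, against 1.07 in the rest, and the log2 odds ratio was 0.25 (interval 0.13 to 0.38). Chromosome 18 alone had an interval clear of 0, with 317 against 209 peaks and a log2 odds ratio of 0.67 (0.40 to 0.95). The background was 13.5 on soft and 12.6 on stiff gel, and its part in the count was not tested. The intervals on chromosomes 6, 9 and 11 reached below 0, with values of 0.19, 0.11 and 0.15. Here too the intervals cover counting error alone and are no test. Median lengths were 751 bp on soft and 610 bp on stiff gel, against 811 and 787 bp in the rest. The shortest listed peak measured 312 bp on soft and 276 bp on stiff gel. Covered length was 1.48 times as large on soft gel in the windows and 1.12 times in the rest. The 4 comparisons share lists, each list entering a pair of them, so they are not separate evidence.

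The chromosome 18 window also differed in spacing. Its median distance between summits was 8.40 kb in selected on soft, 11.4 kb in selected on stiff, 4.95 kb in ancestral on soft and 9.26 kb in ancestral on stiff. In its second 2 Mb the distances were 12.4, 24.6, 5.86 and 16.8 kb. Chromosome 6 had the tightest spacing, at 2.75, 3.13, 2.2 and 2.25 kb, and 80.3%, 70.2%, 93.5% and 90.8% of its neighbouring summits lay within 5 kb of each other. Over all windows this share was 57.0%, 53.9%, 71.2% and 67.0%, against 50%, 48.6%, 40.5% and 39.6% in the rest.

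Set against every 2 Mb tile of chromosomes 1 to 22 and X, the chromosome 6 window was the most crowded in ancestral cells. With 527 and 488 peaks it ranked 1st of 1450 tiles on soft gel and 1st of 1451 on stiff gel, where the median tile held 57 and 63 peaks. In selected cells it ranked 20th of 1436 tiles on soft gel and 53rd of 1446 on stiff gel, with 387 and 303 peaks. The second tile of the chromosome 18 window ranked 416th, 685th, 52nd and 525th in selected on soft, selected on stiff, ancestral on soft and ancestral on stiff. That tile thus stood high in 1 of the 4 lists.

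A tile was called when its ratio of counts, relative to the ratio of the list totals, was at least 2 in the direction named. Comparing selected with ancestral cells on soft gel, 2 of the 5 window tiles were called lower, both on chromosome 18 (log2 ratios −1.0 and −1.34), and 6.54% of all 1377 tiles were. 0 of the 5 were called higher, against 0.363% of tiles. The other tiles had −0.69 on chromosome 6, −0.86 on chromosome 9 and −0.80 on chromosome 11. On stiff gel 0 of the 5 were called lower, against 3.74% of 1391 tiles, and 0 higher, against 0.359%, with ratios from −0.77 to −0.44. The median of all tiles was −0.24 on soft gel and −0.22 on stiff gel. For soft against stiff gel in ancestral cells, the second tile of the chromosome 18 window had the highest ratio of all 1391 tiles, with 227 against 84 peaks and a log2 ratio of 1.52, and was called higher, as were 0.144% of tiles, and 0 of the 5 were called lower, against 0.0719%. The first tile of that window ranked 3rd at 0.96 without reaching the limit. For soft against stiff gel in selected cells these tiles ranked 2nd of 1366 (0.81) and 42nd (0.39), and 0 of the 5 were called higher, against 0.0732%. The rule that picked the windows used these counts, so the ranks are a description.

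**Figure D3:**
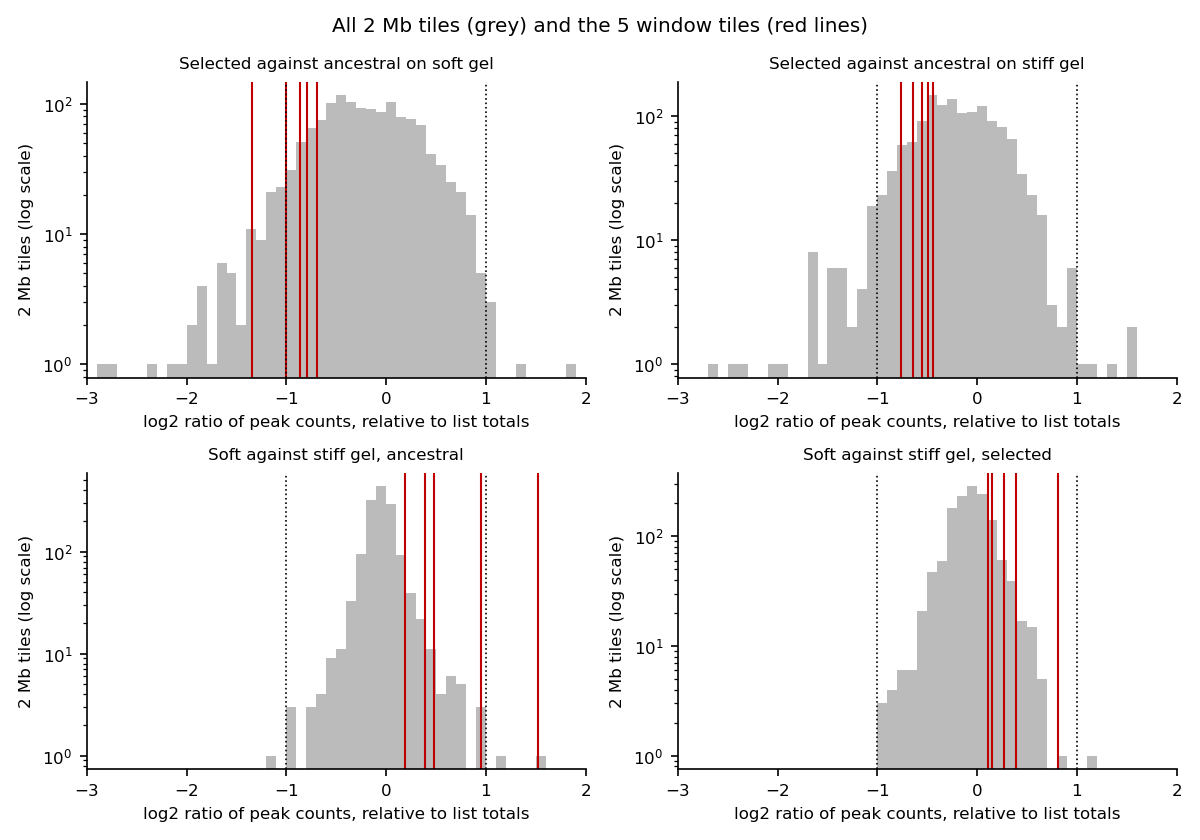
Distribution of the log2 ratio of peak counts relative to the list totals over all 2 Mb tiles (horizontal axis) for each comparison, on a log-scaled count axis, with the 5 window tiles as red lines and the 2-fold limits as dotted lines. The chromosome 18 tiles lie at −1.0 and −1.34 for selected against ancestral cells on the soft gel and at 0.96 and 1.52 for soft against stiff gel in ancestral cells.

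Other tiles without a protein-coding gene shared part of this pattern. On soft gel, 13 of 40 such tiles outside the windows were called lower in selected than in ancestral cells, with a median log2 ratio of −0.67. On stiff gel 8 of 44 were, with a median of −0.37. For soft against stiff gel in ancestral cells 0 of 43 were called higher and the median was 0.11. Among the 16 gene-free tiles with at least 400 peaks over the 4 lists, a limit chosen after the values were seen, all 16 lay below 0 for selected against ancestral cells on soft gel (median −0.54, from −1.40 to −0.18). Of all 1377 tiles, 65.7% lay below 0. On stiff gel 15 of the 16 lay below 0, with a median of −0.21. There 67.9% of all 1391 tiles did, with a median of −0.22. The median of these 16 was 0.23 for soft against stiff gel in ancestral cells, with the highest at 0.75. A lower count in selected cells on soft gel was thus seen in gene-free tiles outside the windows too, whereas the soft over stiff ratio of both chromosome 18 tiles lay above all 16.

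Most window peaks of selected cells overlapped a peak of ancestral cells, and the reverse was less so. On soft gel 89.2% of selected window peaks overlapped an ancestral one by at least 1 bp (interval 87.3 to 90.8%), and 50.5% of ancestral window peaks overlapped a selected one (48.3 to 52.8%). In the rest of the 4 chromosomes together the order was turned, at 62.4% and 77.8%. On stiff gel the shares were 86.5% of selected and 56.7% of ancestral window peaks, against 70.3% and 78.5% in the rest. Ancestral peaks covered 24.3% of the windows and 4.34% of the rest on soft gel, and 14.6% and 4.60% on stiff gel. The part of this denser cover in the shares was not tested. At regions of all 4 lists, 39.1% of selected and ancestral summits on soft gel lay within 50 bp in the windows, against 63.6% in the rest. The rest of chromosome 18 alone kept the order of the windows, at 76.2% of selected and 70.9% of ancestral peaks on soft gel and 80.8% and 73.8% on stiff gel, and its window share of selected peaks on stiff gel, 78.9%, was no higher than that. Between gels in ancestral cells, 57.9% of peaks on soft gel overlapped one on stiff gel and 90.5% of those on stiff gel overlapped one on soft gel, and on chromosome 18 the first share was 37.5% (33.6 to 41.6%) against 91.9% in the rest of that chromosome. Between gels in selected cells, the shares were 61.2% of soft-gel peaks and 81.0% of stiff-gel peaks. The 951 ancestral peaks on soft gel with no selected counterpart on soft gel had a median fold enrichment of 2.54 and length of 546 bp, against 3.47 and 1548 bp for the others, so the unshared peaks were the weaker and shorter ones.

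Merging the 4 lists on overlap gave 2065 regions in the windows and 30579 in the rest of the chromosomes. All 4 lists shared 588 window regions (28.5%, against 41.4% in the rest). Ancestral cells on soft gel alone had 608 (29.4%, against 3.04%), of which 261 lay on chromosome 18, 143 on chromosome 11, 111 on chromosome 9 and 93 on chromosome 6. Both ancestral lists and no other had 209 (10.1%, against 6.12%), and both soft lists and no other had 122 (5.91%, against 0.988%), of which 68 lay on chromosome 18. All lists but that of selected cells on stiff gel shared 198 (9.59%, against 2.11%). Regions of selected cells alone were rare: 53 on soft gel only (2.57%, against 14.8%), 8 on stiff gel only (0.387%, against 6.14%) and 11 in both selected lists only (0.533%, against 9.60%). Both stiff lists and no other had 7 (0.339%, against 1.08%). The windows thus held mostly nested sets, with the ancestral soft list as the widest.

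**Figure D4:**
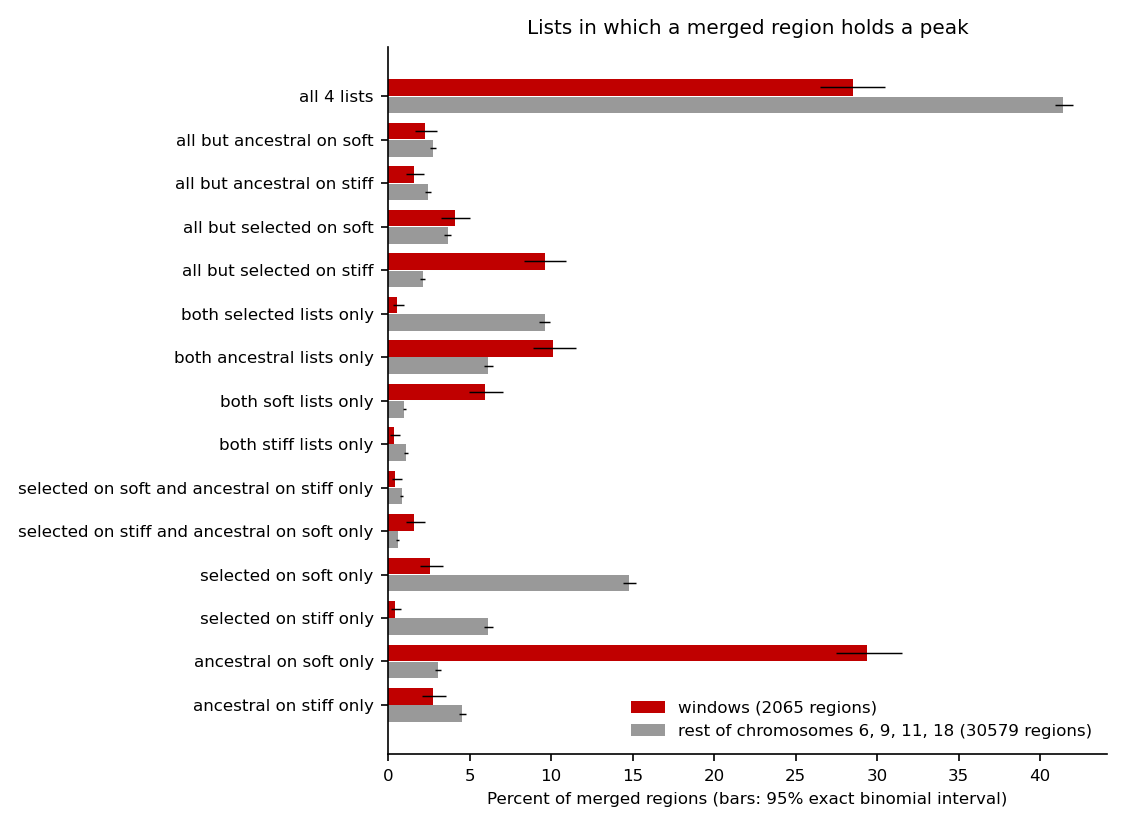
Share in percent of merged regions (horizontal axis) with each pattern of presence over the 4 lists, in the windows and in the rest of chromosomes 6, 9, 11 and 18, with 95% exact binomial intervals as thin bars. Regions listed in ancestral cells on soft gel alone make up 29.4% of window regions and 3.04% of the rest, and regions of both selected lists alone 0.533% and 9.60%.

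At the 588 window regions present in all 4 lists, the ancestral lists had the higher raw pileup almost everywhere, and less so over background. Where a list had several peaks in a region, the one of highest pileup gave its pileup, length and summit. Median pileups were 46 in selected on soft, 40 in selected on stiff, 68 in ancestral on soft and 67 in ancestral on stiff, against 88, 99, 192 and 264 at the 12661 such regions of the rest. Selected cells were higher than ancestral cells at 7 of 588 regions on soft gel and at 4 on stiff gel. In the rest they were higher at 1283 and 530 of 12661. The unscaled median log2 ratios were −0.58 and −0.77, against −1.03 and −1.28 in the rest. Divided by the background of each list, selected cells were higher at 67 of 588 on soft gel and at 234 on stiff gel. In the rest they were then higher at 2052 and 2181 of 12661. The median log2 ratios over background were −0.31 and −0.088, against −0.76 and −0.60 in the rest. On either scale the medians of window regions lay closer to 0 than those of the other regions, which were taller. Where fold enrichment was under 4 in every list, this order turned for raw pileup on both gels and for pileup over background on soft gel. Raw medians were −0.49 on soft and −0.68 on stiff gel at 279 window regions, against −0.11 and −0.47 at 1402 others. Over background they were −0.215 and −0.0013, against 0.166 and 0.208, so the window medians lay below 0 and the others above it.

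Between gels the same 588 regions differed in length. In ancestral cells pileup was higher on soft gel at 285 of 588 regions, against 846 of 12661 in the rest. The median log2 ratio was 0.00, against −0.45 in the rest. Over background it was higher on soft gel at 494, against 3958 in the rest, with a median of 0.31 against −0.14. Peaks were longer on soft gel at 525 of 588, with median lengths of 2082 bp on soft and 1282 bp on stiff gel, whereas 3861 of 12661 other regions were longer on soft gel. In selected cells pileup was higher on soft gel at 430 of 588, against 3549 of 12661 in the rest. The median log2 ratio was 0.16, against −0.17 in the rest. Length was greater on soft gel at 417, against 6825 in the rest, with window medians of 1100 bp on soft and 734 bp on stiff gel. Where fold enrichment was under 4 in every list, length was greater on soft gel at 212 of 279 window regions and 910 of 1402 others. Summits of a region lay a median of 74 to 102.5 bp apart between the lists of a comparison, against 10 to 27 bp in the rest. Weak regions elsewhere had loose summits too: where fold enrichment was under 4 in every list, the medians were 116 to 164 bp at 279 window regions and 109.5 to 180 bp at 1402 others.

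The tallest window regions lay on chromosome 11. At chr11:52972745-52976599 the pileup was 215 in selected on soft, 173 in selected on stiff, 289 in ancestral on soft and 309 in ancestral on stiff. At chr11:53203900-53209418 it was 184, 195, 277 and 301, with lengths of 3840, 2606, 5390 and 4302 bp. These regions had a fold enrichment of at least 12.8 in every list, far above the window median. At chr11:53305848-53309946 the pileup was 184 in selected on soft, 193 in selected on stiff and 324 in ancestral on stiff, and at chr11:53452971-53458658 it was 139, 122 and 219. Ancestral cells on soft gel have a skipped number at both, so their value is undetermined.

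On chromosome 9 the tallest were chr9:44084661-44087764, with pileups of 116 in selected on soft, 89 in selected on stiff, 196 in ancestral on soft and 174 in ancestral on stiff, and chr9:44167744-44169211, with 115, 100, 182 and 138. On chromosome 18 chr18:17404905-17406868 had 118, 98, 160 and 147, and chr18:17598042-17600415 had 126, 86, 168 and 173. On chromosome 6, which had the most crowded tile, chr6:58989873-58993236 had 88, 79, 137 and 177. In the first 3 lists its tallest peaks were thus lower than those on chromosomes 9 and 18. The highest pileup on chromosome 6, 221 in ancestral cells on stiff gel, was at chr6:58351464-58352157 in the sparse first part of the window, where the other lists had 72 in selected on soft, 93 in selected on stiff and 123 in ancestral on soft.

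Selected over ancestral pileup was compared per region after scaling to the background of each list and averaging both gels. Each list entered with its peak of highest pileup in the region, and the summits of these peaks can lie apart. The lowest log2 ratios were −0.83 at chr6:58570989-58572827, with pileups of 59 in selected on soft, 76 in selected on stiff, 127 in ancestral on soft and 217 in ancestral on stiff, and −0.82 at chr6:59167685-59170757, with 51, 61, 108 and 173. On chromosome 11 the lowest was −0.78 at chr11:52006388-52010067, with 45, 50, 106 and 121, and on chromosome 9 −0.71 at chr9:44998223-44999939, with 34, 33, 87 and 67. On chromosome 18 the lowest was −0.58 at chr18:18156525-18160704, with 37, 38, 75 and 81. All 5 were picked for a low ratio over both gels, so an ancestral pileup above the selected one is part of that choice.

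At the other end, chr11:52067518-52069955 had a log2 ratio of 0.55, with pileups of 55 in selected on soft, 53 in selected on stiff, 48 in ancestral on soft and 55 in ancestral on stiff. The ancestral summit on soft gel lay at 52069373 there, and those of the other lists at 52067717 to 52067770. At chr11:52161117-52164935 it was 0.48, with 89, 93, 94 and 88, and at chr18:16889593-16893317 it was 0.42, with 56, 49, 58 and 51. The highest on chromosome 6 was 0.34 at chr6:59500273-59501558, with 49, 42, 51 and 49. These regions had nearly equal raw pileups in all 4 lists, so that most of each ratio above 0 is the division by the lower background of the selected lists.

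Length could differ widely within 1 merged region, where each list is represented by its peak of highest pileup. At chr6:58789844-58794828 the peak measured 479 bp in selected on soft, 521 bp in selected on stiff, 4985 bp in ancestral on soft and 566 bp in ancestral on stiff, with pileups of 48, 49, 84 and 89. At chr9:44888994-44894602 the lengths were 1043, 1696, 5476 and 352 bp, and at chr18:16292959-16297731 they were 757, 505, 4754 and 757 bp. The summits in the chromosome 9 region lay at 44894375, 44890550, 44891269 and 44889824, so its lengths belong to peaks at different positions. These 3 regions were picked for the longest peak of ancestral cells on soft gel in their windows, so the long peak there follows from the choice. At chr9:44015252-44022971, picked as the longest of ancestral cells on stiff gel, the lengths were 5403, 2415, 4831 and 4259 bp. At chr11:52166856-52174081 the lengths were 7152 bp in selected on soft, 4029 bp in selected on stiff and 2995 bp in ancestral on stiff. Ancestral cells on soft gel had a listed peak of 745 bp there beside a skipped number that covers most of the region, so their length is undetermined.

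Some regions were listed in part of the lists. Both ancestral lists and no other had chr6:59719969-59720270, with pileups of 76 on soft and 95 on stiff gel, and chr11:52049879-52050188, with 71 and 82. Ancestral cells on stiff gel alone had chr18:17769577-17769939 with a pileup of 114, and ancestral cells on soft gel alone had chr18:18867057-18867433 with 68. Both selected lists and no other had chr6:58259046-58260590, with 42 on soft and 36 on stiff gel, and chr18:19352049-19353079, with 35 and 32. At chr9:44208627-44216583 and chr11:52105283-52109097 the selected lists had peaks, with pileups of 75 on soft and 59 on stiff gel and of 74 and 98, and both ancestral lists have a skipped number there. The ancestral peaks named here stood well above the lowest pileup of their lists, and those of the selected lists on chromosome 18 stood close to it. All were picked for the highest fold enrichment of their pattern in a window, so the height of the ancestral peaks follows from that choice. The chromosome 18 window held only 1 region of both selected lists alone, so the contrast is no comparison of the patterns.

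Skipped numbers lay in the windows 1, 0, 31 and 4 times in selected on soft, selected on stiff, ancestral on soft and ancestral on stiff, and 17 of the 31 were on chromosome 11. The list with the longest window peaks thus also had the most skipped numbers there. Of the 135 window peaks of selected cells on soft gel that overlapped no ancestral peak on soft gel, 70 lay at such a stretch. Of the 134 ancestral peaks on stiff gel without a counterpart on soft gel, 73 did.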

How the data were processed

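MACS tables of accessible peaks were analysed, 1 per group of 4 samples. GRCh38 is the build in the submitters' processing notes, which list, without order or options, the tools MACS2 2.2.7.1, Bowtie2 2.4.5, MultiQC 1.1, FastQC 0.11.4 and Trimmomatic 0.36. The way in which a group's 4 libraries became 1 list, and any filter on read placement, is not given in the sources used here. Per the file headers, each peak has a start, an end, a length and a summit position in bp. The deposited pileup is a signal at the summit, a whole number without scaling for depth. Fold enrichment as deposited is the ratio of that pileup, plus 1, to a background plus 1, and a single background per list reproduced it. The deposited −log10 p-value was not used, and the deposited −log10 q-value served as a filter.

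Peaks were assigned to windows by summit. Shares carry exact Clopper-Pearson 95% intervals, and odds ratios set windows against the rest of chromosomes 6, 9, 11 and 18, with exact conditional intervals. All cover counting error only, since reads piled at a place are not separate samples. Differences in log2 median length, pileup and spacing were taken relative to the same chromosomes, pileup after division by the background of its list. Tiles of 2 Mb needed at least 10 peaks over the lists compared, and a ratio of at least 2 to be called. Regions were merged on an overlap of at least 1 bp. A list with several peaks in a region was represented there by the one of highest pileup.

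Regions named were, per window, the 2 of highest pileup and the longest of each list, the 2 highest and 2 lowest ratios of selected over ancestral pileup, and the 2 most enriched regions of a single list or of a population only. A selection of these is printed. Windows, members and lists were chosen with earlier results of these data known. Gene positions came from RefSeq GRCh38.p14. No genome sequence was used here. Steps were tested on simulated data. Alternatives were a −log10 q-value of at least 10, equal numbers of peaks per list, window bounds moved out by 1 Mb, mean in place of median pileup, the rest taken within 10 Mb, spacing from edge to edge, 50% overlap, gaps of 500 bp, tiles of at least 30 peaks and each window left out. Restriction to a fold enrichment under 4 and counting of skipped numbers were added after seeing the data. Computation used matplotlib 3.10.9, scipy 1.17.1, pandas 2.3.3 and numpy 2.4.6 under python 3.11.15.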

Additional observations from a re-analysis of the deposited data

How the results depend on the processing

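No paired analysis was possible because the files hold 1 list per group, which also leaves no replicate to leave out. Number, length, pileup and spacing are log2 differences between lists relative to the rest of the chromosomes. Here "soft contrast" is selected against ancestral cells on soft gel, "stiff contrast" the same on stiff gel, and "ancestral gels" and "selected gels" are soft against stiff gel. As reported, in that order, number was −0.86, −0.63, 0.48 and 0.25, length −0.28, −0.18, 0.35 and 0.26, pileup over background 0.69, 0.65, 0.13 and 0.16, and spacing 0.94, 0.90, −0.05 and −0.01.

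With equal numbers of peaks per list, number turned to 1.26 and 1.24 and spacing to −0.47 and −0.86 in the soft and stiff contrasts. There, length was −0.69 and −0.62 and pileup 0.34 and 0.32, and in the ancestral and selected gels number was 0.84 and 0.86 and spacing −0.83 and −0.44. The admitted fold enrichment differed between lists under that setting. With a −log10 q-value of at least 10, the soft and stiff contrasts had number −1.04 and −0.92, pileup 0.62 and 0.45, and spacing 1.29 and 1.26. The ancestral gels then had pileup −0.018, the opposite direction, and spacing −0.23, and the selected gels number 0.47 and length 0.027. For fold enrichment under 4, number was −1.37 and −1.06 and spacing 1.09 and 1.32 in the soft and stiff contrasts, spacing was 0.15 in the ancestral gels, and number was 0.11 in the selected gels.

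Without chromosome 6, length was −0.028 and −0.0078 in the soft and stiff contrasts, pileup 0.80 in the soft contrast, and number 0.67, pileup 0.042 and spacing −0.27 in the ancestral gels. Without chromosome 18, the soft contrast had length −0.48 and pileup 0.62, the stiff contrast pileup 0.62, and the ancestral gels number 0.27. Bounds moved out by 1 Mb gave number −0.75 and −0.51 in the soft and stiff contrasts and pileup 0.77 in the soft contrast. The rest within 10 Mb gave pileup 0.64, 0.55 and 0.038 in the soft contrast, the stiff contrast and the ancestral gels. Mean pileup gave 0.95, 0.77, 0.21 and 0.39 in the 4 comparisons. Edge-to-edge spacing was 1.80, 1.41 and −0.41 in the first 3.

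Shared shares moved as follows. On soft gel, selected peaks were shared with ancestral ones at 87.0% with 50% overlap, 87.0% at the q-value limit and 94.5% without undetermined peaks, and ancestral peaks with selected ones at 54% with 500 bp gaps and 35.7% at the q-value limit. On stiff gel, selected peaks were at 89.3% at that limit, and ancestral peaks at 60.6% with gaps and 37.6% at the limit. In ancestral cells, peaks on soft gel were at 61.6% with gaps, and those on stiff gel at 84.6% at the limit and 95.4% without undetermined peaks. In selected cells, peaks on soft gel were at 64.2% with gaps and 58% at the limit, and those on stiff gel at 78.2% with 50% overlap and 84.0% with gaps. With tiles of at least 30 peaks, 50 and 23 tiles were called lower in the soft and stiff contrasts in place of 90 and 52, and 1 higher and 0 lower in the ancestral gels in place of 2 and 1.

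Over all alternatives, number stayed within its interval 26 times, moved 12 times and reversed 2 times. For length the counts were 34, 6 and 0, for spacing 26, 12 and 2, and for pileup, which left its interval most often, 23, 16 and 1. The causes of these shifts were not tested. Lists of different depth admit weak peaks to different extents, and no value here separates depth from accessibility.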
